A study of Rattus norvegicus with 6 samples.

Results

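The genes of 10 glycolytic enzymes (Hk1, Hk2, Pfkl, Pfkm, Pfkp, Aldoa, Pgk1, Eno1, Pkm and Ldhb) were followed on arrays of rat fibroblasts. They were chosen by name from 2891 genes that the table measures. Each probe set mapping to exactly 1 of them was taken, 20 of the 4847 in the deposited table. Of these, 2 were the array's own hexokinase control probe sets, so 18 probe sets of 10 genes were among the 4818 tested. FE8 is a rat fibroblast line transformed by the HRAS oncogene and 208F is the immortal, non-transformed line. The groups were treated FE8 (n = 2), untreated FE8 (n = 1), treated 208F (n = 2) and untreated 208F (n = 1), where treatment was 0.3 µM of 5-aza-2'-deoxycytidine over 96 h in both lines. This nucleoside traps DNA methyltransferases on DNA, and methylation is then lost as cells divide. With 1 line of each kind, transformation and any other feature of FE8 cannot be told apart. Nothing in the labels states that duplicates were separate cultures, and p-values then reflect only the spread of these samples, possibly technical.

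Glycolysis converts glucose to pyruvate in the cytosol, and lactate dehydrogenase interconverts pyruvate and lactate. Hexokinase traps glucose as a phosphate ester, phosphofructokinase commits the sugar to the pathway, and the later enzymes yield ATP and pyruvate. Transformed cells, RAS-transformed ones among them, are known for high glucose uptake and lactate output even with oxygen present.

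Promoter sequences are shown for the 3 genes whose line or drug differences were largest, since CG pairs are where DNA methylation mainly lies in mammals. They come from RefSeq (build GRCr8), cover 250 bases before to 50 bases after the gene start, and are written 5′ to 3′ on the gene's strand, with CG pairs in capitals. Pfkp lies at chr17:68639563-68639862 (plus strand), Hk2 at chr4:116841226-116841525 (minus strand) and Pfkl at chr20:10663715-10664014 (plus strand).
Pfkp: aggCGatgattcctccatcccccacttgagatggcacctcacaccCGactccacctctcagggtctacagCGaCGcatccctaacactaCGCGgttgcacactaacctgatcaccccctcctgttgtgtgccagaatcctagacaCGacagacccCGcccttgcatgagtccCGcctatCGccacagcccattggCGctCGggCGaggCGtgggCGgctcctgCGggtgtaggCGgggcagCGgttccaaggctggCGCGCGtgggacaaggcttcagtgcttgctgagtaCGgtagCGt
Hk2: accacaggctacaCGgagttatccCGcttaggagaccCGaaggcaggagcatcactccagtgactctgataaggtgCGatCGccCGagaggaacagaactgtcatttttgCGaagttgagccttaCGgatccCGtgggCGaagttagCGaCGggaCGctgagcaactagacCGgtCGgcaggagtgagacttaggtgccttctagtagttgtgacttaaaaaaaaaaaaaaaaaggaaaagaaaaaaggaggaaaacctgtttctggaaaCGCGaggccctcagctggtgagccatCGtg
Pfkl: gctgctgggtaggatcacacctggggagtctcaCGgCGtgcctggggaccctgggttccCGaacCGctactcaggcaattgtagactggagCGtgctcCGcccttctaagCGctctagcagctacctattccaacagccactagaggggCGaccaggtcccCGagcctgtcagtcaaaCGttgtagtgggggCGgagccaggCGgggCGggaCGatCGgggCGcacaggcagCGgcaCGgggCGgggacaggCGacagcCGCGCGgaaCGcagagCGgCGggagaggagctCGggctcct

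The Pfkp window held 23 CG pairs, the Hk2 window 18 and the Pfkl window 27, against a median of 7 over the 33469 promoter windows in the table. For Pfkp, 80.5% of all windows had fewer CG pairs, for Hk2 72.5% and for Pfkl 86.1%. Of the 10 genes, 9 were in the promoter table, with 13 windows in all, whose CG pairs ran between 3 (1 of the Hk1 windows) and 27. The core letters of the hypoxia factor motif were searched on both strands as ACGTG and GCGTG, whose matches may share bases with each other or with the GC box letters named next. GCGTG occurred 2 times in the Pfkp window, 2 times in the Pfkl window and not in the Hk2 window, and was present in 29.7% of all windows. ACGTG was in none of these 3 windows and in 19.3% of all windows. The GC box letters GGGCGG, on both strands, occurred 2 times for Pfkp and 4 times for Pfkl, not for Hk2, and in 33.1% of all windows. A match is a run of letters and not a measured binding site, and methylation was not measured in the files used here.

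Signals are intensities on a linear scale, and differences between groups are on the scale log2(signal + 64), with 64 taken from the low end (10th percentile) of the tested signals. The error after ± is a standard error from limma's fit of 4 group means, and adjusted p is Benjamini-Hochberg over all 4818 tested probe sets, with a threshold of 0.05. Each untreated group was a single array, and its spread was taken from the treated duplicates. With a treated replicate of either line left out, the error comes only from the duplicates of the other line. A pass without a 208F treated replicate thus rests only on the FE8 duplicates, which share day and lot. Such a pass is not read as a call. Median signals lay between 354 and 422. Signals below 64 made up 13.5% in untreated FE8 and 13.3% in untreated 208F, against 7.0% to 9.7% on the treated arrays. Both untreated arrays were run on the same day and chip lot, and the treated arrays on other days and lots, so drug and run session cannot be told apart. The treated 208F duplicates were run on different days and lots, and treated 208F replicate 2 shared its day and lot with both treated FE8 arrays. The ratio of 5' to 3' signal of GAPDH, a sign of RNA quality, was 1.126 and 1.073 in treated FE8, 0.691 in untreated FE8, 1.132 and 1.010 in treated 208F and 0.916 in untreated 208F. For beta-actin it was 0.405 and 0.384 in treated FE8, 0.351 in untreated FE8, 0.529 and 0.456 in treated 208F and 0.824 in untreated 208F. By beta-actin every FE8 array was below every 208F array, and the untreated arrays were furthest apart. The part of RNA quality in the differences was not tested. Of 9 fibroblast markers 8 were measured, and their summed signal was 50701 and 56213 in treated FE8, 61527 in untreated FE8, 126973 and 98914 in treated 208F and 163388 in untreated 208F. Type I collagen Col1a1 was low in FE8 (100 to 474 over its 4 probe sets), against 3243 to 22282 in 208F, so this defining marker was scarce in FE8. Other fibroblast markers were not, such as S100a4, with 18290 to 23151 in FE8 and 14411 to 20185 in 208F. Thy1 and Sparc rc_AA892248_at also overlapped between the lines. Averaged over the conditions 14 of 20 fibroblast probe sets were lower in FE8, against 5.35% of all probe sets, and none was higher, against 5.71%. No marker was at 0, and in such samples fewer cells of a type and less RNA per cell cannot be told apart.

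**Figure D1:**
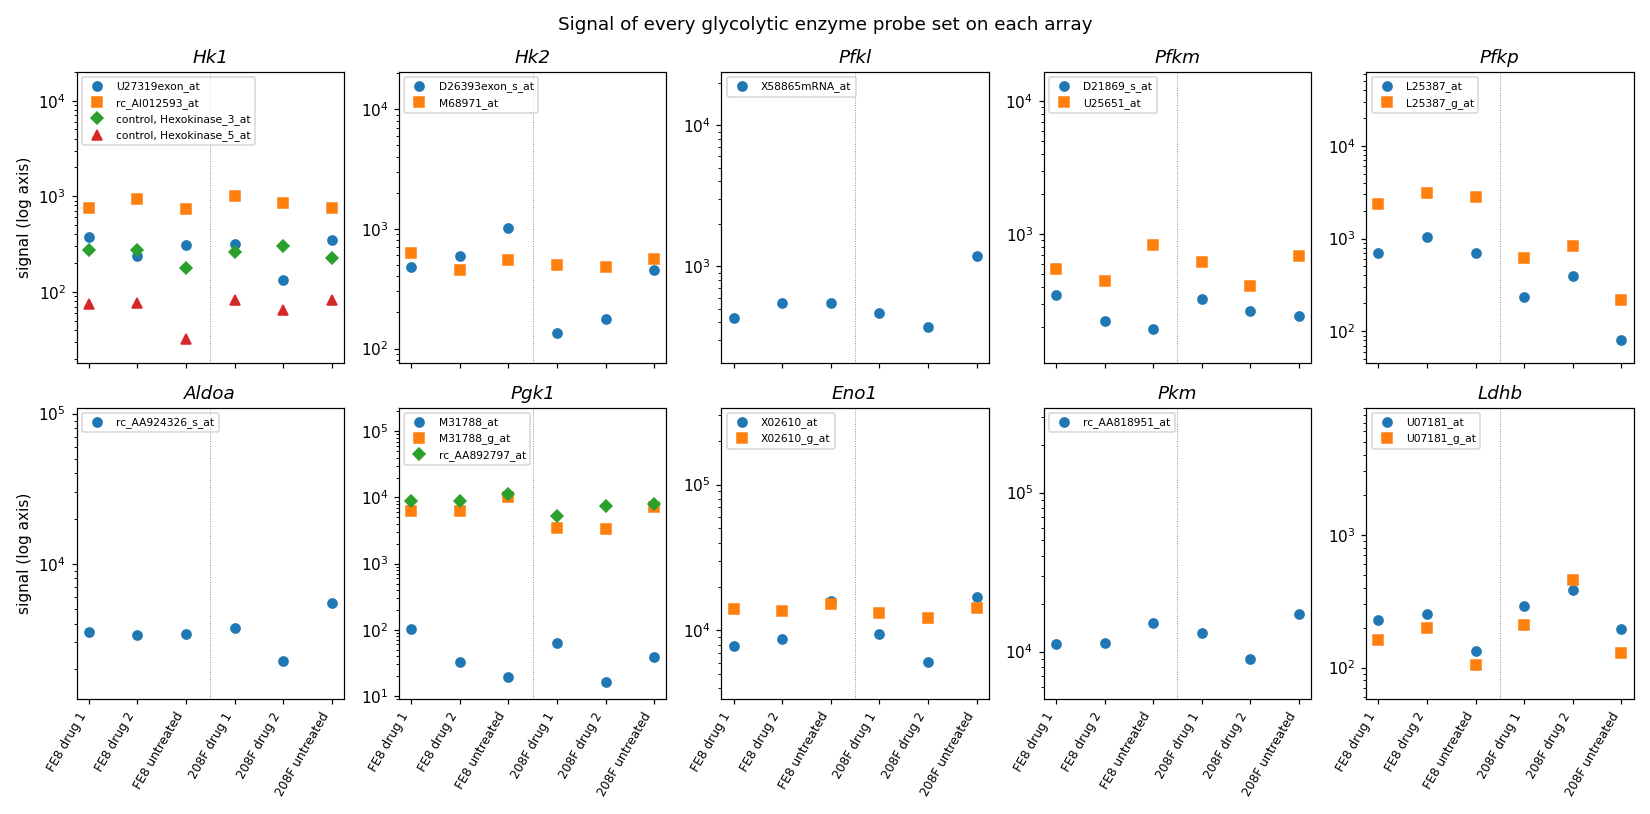
Signal of each probe set of the 10 enzymes (log axis) on the 6 arrays, with 1 panel per gene and 1 symbol per probe set; there are no error bars because each point is 1 array. Pfkp lies higher on all 3 FE8 arrays than on all 3 208F arrays, while Hk1, Aldoa, Eno1 and Pkm overlap between the lines.

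The first question was how the lines differ. Pfkp, the platelet-type phosphofructokinase, was the only one of the 10 genes that differed without the drug by the threshold, and it was far higher in FE8. By the brighter probe set L25387_g_at its signal was 2820 in untreated FE8 and 215 in untreated 208F. By L25387_at, made from the same sequence record, it was 693 in untreated FE8 and 81 in untreated 208F. The log2 difference was 3.37 ± 0.35 for L25387_g_at (limma adjusted p = 0.000181), a 10.3-fold difference on this scale, and 2.38 ± 0.45 for L25387_at (limma adjusted p = 0.00902). The call for L25387_at was lost without FE8 treated replicate 1 (2.38, adjusted p = 0.0549) or replicate 2 (adjusted p = 0.0553), when only the 208F duplicates inform the error. The call for L25387_g_at held under each of the 11 alternatives, with values between 2.71 and 3.62.

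Under the drug Pfkp was again higher in FE8. The group means come from other arrays than in the untreated comparison, but both comparisons take their error from the same treated duplicates. L25387_g_at had signals of 2336 and 3136 in treated FE8 and 621 and 826 in treated 208F. L25387_at had 692 and 1048 in treated FE8 and 234 and 398 in treated 208F. All 3 FE8 arrays therefore lay above all 3 208F arrays for both probe sets. The difference was 1.83 ± 0.25 (limma adjusted p = 0.000829) for L25387_g_at and 1.31 ± 0.32 (limma adjusted p = 0.0321) for L25387_at. Without FE8 treated replicate 2 it was 1.62 for L25387_g_at (adjusted p = 0.0742) and 1.03 for L25387_at (adjusted p = 0.390). L25387_at also missed the threshold without FE8 treated replicate 1 (1.58, adjusted p = 0.124) and without 208F treated replicate 1 (0.99, adjusted p = 0.0574), the value within 1 chip lot. For L25387_g_at the alternatives ran between 1.61 and 2.04. Averaged over untreated and treated cells, which uses the same arrays again, the difference was 2.60 ± 0.22 for L25387_g_at (adjusted p = 1.43e-05) and 1.85 ± 0.28 for L25387_at (adjusted p = 0.00108). Those calls held under all 11 alternatives.

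The other phosphofructokinase isoforms did not show this pattern. Pfkl, the liver-type subunit, had a signal of 428 and 554 in treated FE8, 553 in untreated FE8, 467 and 369 in treated 208F and 1192 in untreated 208F. The untreated 208F array stood alone at the high end, and the lines overlapped on the other 5 arrays. The Pfkl difference was -1.03 ± 0.38 without the drug (adjusted p = 0.182) and 0.20 ± 0.27 with it (adjusted p = 0.860). Pfkm, the muscle-type subunit, had signals of 450 to 831 in FE8 and 408 to 691 in 208F by U25651_at, and 193 to 349 in FE8 and 245 to 325 in 208F by D21869_s_at. It differed by 0.25 ± 0.39 (U25651_at) and -0.27 ± 0.44 (D21869_s_at) without the drug and by -0.02 ± 0.28 and -0.05 ± 0.31 with it. The 95% intervals of these Pfkm differences under the drug, -0.63 to 0.59 and -0.74 to 0.64, do not reach the Pfkp estimates of 1.31 and 1.83. The interval of Pfkp L25387_at, 0.60 to 2.01, overlaps that of Pfkm D21869_s_at. The isoforms were not tested against each other.

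**Figure D2:**
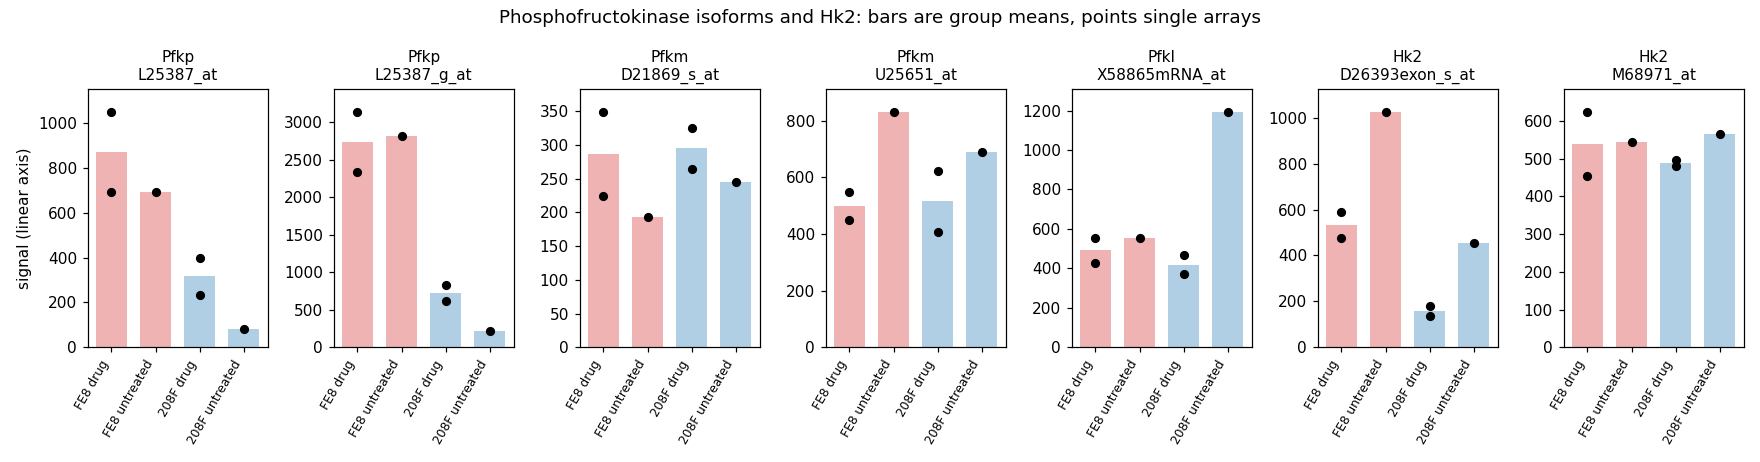
Signal (linear axes from 0) of the phosphofructokinase isoforms and of Hk2 in the 4 groups; bars are group means, points are single arrays (2 treated and 1 untreated per line). Pfkp is higher on every FE8 array, Pfkl is highest in untreated 208F at 1192, and Hk2 separates the lines by D26393exon_s_at and overlaps by M68971_at.

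Hk2, the inducible hexokinase bound to mitochondria, was higher in FE8 by 1 of its 2 probe sets. D26393exon_s_at had 477 and 590 in treated FE8, 1025 in untreated FE8, 135 and 178 in treated 208F and 456 in untreated 208F. Every FE8 array lay above every 208F array, although the lowest FE8 value (477) was close to untreated 208F. The difference was 1.44 ± 0.28 under the drug (limma adjusted p = 0.00829) and 1.07 ± 0.40 without it (adjusted p = 0.187). The treated call was lost without FE8 treated replicate 1 (1.58, adjusted p = 0.0777) or replicate 2 (1.30, adjusted p = 0.167). Averaged over the conditions it was 1.25 ± 0.24 (limma adjusted p = 0.00589), and 1.18 without FE8 treated replicate 2 (adjusted p = 0.0613). M68971_at gave 623 and 455 in treated FE8, 544 in untreated FE8, 495 and 480 in treated 208F and 564 in untreated 208F, with differences of 0.12 ± 0.27 under the drug and -0.05 ± 0.38 without it. The Hk2 probe sets therefore disagreed. The suffix of D26393exon_s_at marks a set that may be shared between transcripts.

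Hk1, the constitutive hexokinase, did not separate the lines. Its probe set rc_AI012593_at ran from 730 to 943 in FE8 and from 756 to 1001 in 208F, with differences of -0.11 ± 0.24 under the drug and -0.05 ± 0.35 without it. U27319exon_at differed by 0.41 ± 0.37 and -0.14 ± 0.52, and its treated 208F duplicates were apart, at 313 and 134. The control probe sets, described without a test, had 176 to 276 in FE8 and 227 to 298 in 208F at the 3' end, and 32 to 77 in FE8 and 64 to 82 in 208F at the 5' end.

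Pgk1, the phosphoglycerate kinase that makes the first ATP of the pathway's payoff, was higher in treated FE8 by 1 probe set. M31788_g_at had 6211 and 6249 in treated FE8, 10190 in untreated FE8, 3514 and 3281 in treated 208F and 7283 in untreated 208F. Within each drug condition FE8 was the higher line, by 0.86 ± 0.22 with the drug (limma adjusted p = 0.0349) and 0.48 ± 0.31 without it (adjusted p = 0.555). The treated call was lost without FE8 treated replicate 1 (0.87) or replicate 2 (0.86). It was also lost with median scaling (adjusted p = 0.0951), with no intensity trend and with a replicate block. Averaged over the conditions the difference was 0.67 ± 0.19 (adjusted p = 0.0410), a call that held in 6 of 11 alternatives. It was lost without FE8 treated replicate 1 or 2, with median scaling (adjusted p = 0.115), with no intensity trend and with a replicate block. rc_AA892797_at, with 8946 and 8884 in treated FE8, 11408 in untreated FE8, 5312 and 7325 in treated 208F and 7879 in untreated 208F, also lay higher on all FE8 arrays, by 0.51 ± 0.24 (adjusted p = 0.319) and 0.53 ± 0.34 (adjusted p = 0.568). Under the drug its difference was 0.74 without 208F treated replicate 2. M31788_at, at 16 to 101 over the 6 arrays, was near or below the value of 64 added to each signal and gives no usable difference.

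Aldoa, Eno1, Pkm and Ldhb did not pass in either line comparison. Aldoa, the aldolase that splits the sugar, had 3534 and 3344 in treated FE8, 3426 in untreated FE8, 3729 and 2263 in treated 208F and 5479 in untreated 208F. Its difference was 0.24 ± 0.26 with the drug and -0.67 ± 0.37 without it. Eno1, the enolase that forms phosphoenolpyruvate, differed by at most 0.13 in size in both comparisons and both probe sets. For X02610_g_at the 95% interval under the drug was -0.40 to 0.64. Pkm, pyruvate kinase, differed by 0.05 ± 0.26 with the drug and -0.19 ± 0.37 without it. Ldhb, the heart-type lactate dehydrogenase subunit, was on the lower side in FE8 in all 4 estimates (-0.63 ± 0.36 to -0.20 ± 0.51), and none passed.

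**Figure D3:**
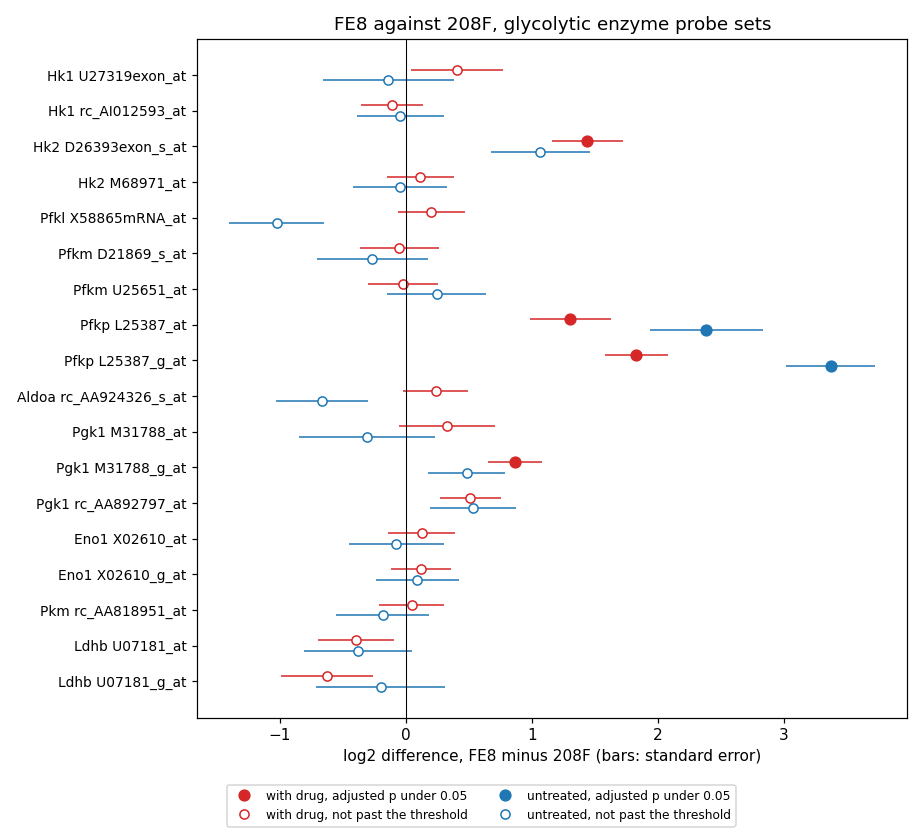
Log2 difference, FE8 minus 208F, with standard errors, for the 18 tested probe sets, with the drug (upper point of each pair) and untreated (lower point); filled points have an adjusted p under 0.05. Only the Pfkp probe sets are filled in both comparisons, at 2.38 and 3.37 untreated and at 1.31 and 1.83 with the drug.

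Without the drug 2 of 18 probe sets (both Pfkp) were higher in FE8 and none was lower (11.1% of the 18). Of all probe sets 5.92% were called, 3.09% higher and 2.82% lower. Under the drug 4 of 18 were higher (2 of Pfkp, 1 of Hk2, 1 of Pgk1), against 3.42% of all probe sets, and none was lower, against 3.65% (7.08% in either direction). Averaged over both conditions the same 4 probe sets were higher, against 5.71%, and none was lower, against 5.35%. The median difference over the 18 was -0.06 without the drug and 0.16 with it, beside medians of 0.02 and 0.00 over all probe sets. The median over the enzymes was therefore near that of all probe sets, with Pfkp far out. All 3 FE8 arrays were above all 3 208F arrays for 4 of 18 probe sets, where 8.55% of all probe sets had this order, and for none was FE8 below throughout, where 9.53% had that order.

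The pattern of Pfkp L25387_g_at over the 6 arrays was matched most closely by Cyp3a9 (Pearson's r = 0.990), Crcp (0.990), Efna1 (0.989), Lama3 (0.989) and Ptprn (0.987). These are the closest of all probe sets with 1 gene over only 6 arrays that form 2 lines, given as a description. Lama3, a laminin chain, had 688 and 649 in treated FE8, 581 in untreated FE8, 149 and 238 in treated 208F and 49 in untreated 208F. Like Pfkp, all 5 genes were lowest in untreated 208F, which their choice by correlation with Pfkp favours.

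The second question was what the drug changed. In FE8 none of the 18 probe sets passed by limma, where 8.16% of all probe sets did (5.06% of all higher, 3.09% of all lower). At an unadjusted p under 0.05 there were 3 of 18 (16.7%) in FE8, beside 21.3% of all probe sets, 7 of 18 (38.9%) in 208F, beside 17.7%, and 10 of 18 (55.6%) averaged over the lines, beside 28.7%. In 208F 1 of 18 was higher (Pfkp) and 2 were lower (Pfkl and Pgk1), against 3.59% and 1.60% of all probe sets (5.19% in either direction). Median scaling of the arrays moved the share of higher calls among all calls in 208F to 58.0%, against 69.2% without it. Averaged over the lines 1 of 18 was higher and 4 were lower, against 9.07% and 6.50% (15.6% in either direction), with a median of -0.24 over the 18 beside 0.11 over all probe sets. Median scaling moved the median over all probe sets to -0.01 and that of the 18 to -0.38, and the share of higher calls to 46.8%, against 58.3%. With quantile normalization the median of the 18 was -0.13, beside -0.04 over all probe sets.

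Pfkp rose in treated 208F by 1 of its 2 probe sets. Signals by L25387_g_at were 621 and 826 in treated 208F against 215 in untreated 208F, a difference of 1.49 ± 0.31 (limma adjusted p = 0.0173). By L25387_at the difference was 1.36 ± 0.39 (adjusted p = 0.0770), with 234 and 398 in treated 208F and 81 in untreated 208F. L25387_at passed in 3 of 11 alternatives, and its value without 208F treated replicate 1 was 1.67. In FE8 the differences were -0.06 ± 0.31 and 0.28 ± 0.39, with 2336 and 3136 in treated FE8 against 2820 in untreated FE8 by the brighter set. The test of the difference between the drug effects gave -1.54 ± 0.43 for L25387_g_at (limma adjusted p = 0.229), so a difference between the lines was not called. Without 208F treated replicate 1 that difference was -1.73. The rise in 208F was not called without FE8 treated replicate 1 (adjusted p = 0.10) or replicate 2 (adjusted p = 0.0983), nor with a larger pseudocount, quantile normalization or no intensity trend (adjusted p up to 0.0548). Averaged over the lines L25387_g_at was higher in treated cells by 0.71 ± 0.22 (limma adjusted p = 0.0466), which held in 4 of 11 alternatives. L25387_at gave 0.82 ± 0.28 (adjusted p = 0.0699), and 0.97 without 208F treated replicate 1. Treated 208F remained below every FE8 array.

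Pfkl fell in treated 208F, with 467 and 369 against 1192 in untreated 208F, by -1.39 ± 0.33 (limma adjusted p = 0.0330). The call rests on the single untreated 208F array, and it was lost without FE8 treated replicate 1 (adjusted p = 0.123) or replicate 2 (adjusted p = 0.124), with quantile normalization (adjusted p = 0.0726) and with no intensity trend. In FE8 the Pfkl difference was -0.16 ± 0.33, and the difference between the drug effects was 1.23 ± 0.46 (limma adjusted p = 0.479). Averaged over the lines Pfkl fell by 0.78 ± 0.23 on the log2 scale (limma adjusted p = 0.0428), which held in 7 of 11 alternatives. It did not pass without FE8 treated replicate 1 (-0.69) or replicate 2 (-0.86). Nor did it pass with quantile normalization or with no intensity trend (adjusted p up to 0.0712). Pfkm gave averaged drug differences of -0.54 ± 0.24 (U25651_at, adjusted p = 0.166) and 0.32 ± 0.27 (D21869_s_at, adjusted p = 0.485), of opposite sign. Without 208F treated replicate 1 U25651_at was at -0.68.

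Pgk1 and Eno1 fell with the drug averaged over the lines, by 1 probe set each, and no probe set of either passed in FE8 alone. Pgk1 M31788_g_at differed by -0.70 ± 0.26 in FE8 (adjusted p = 0.145) and by -1.09 ± 0.26 in 208F (limma adjusted p = 0.0389). Averaged over the lines it fell by 0.90 ± 0.19 on the log2 scale (adjusted p = 0.00844), with all 4 treated arrays (3281 to 6249) below both untreated arrays (7283 and 10190). Its FE8 value stayed at -0.70 without 208F treated replicate 1 or 2. Its 208F value did not pass without FE8 treated replicate 1 (adjusted p = 0.206) or replicate 2 (adjusted p = 0.203), and the averaged value likewise (adjusted p = 0.102 and 0.0909). The other bright Pgk1 probe set, rc_AA892797_at, was at -0.34 ± 0.21 averaged over the lines (adjusted p = 0.315). It was at -0.46 without 208F treated replicate 2.

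Eno1 X02610_at had 7759 and 8792 in treated FE8 against 15950 in untreated FE8, and 9427 and 6072 in treated 208F against 16828 in untreated 208F. Both untreated arrays were higher than all treated ones. The difference was -0.94 ± 0.33 in FE8 (adjusted p = 0.108) and -1.15 ± 0.33 in 208F (adjusted p = 0.0722). The average over the lines was -1.05 ± 0.23 (limma adjusted p = 0.0112). The 208F value was -1.46 without 208F treated replicate 1 and -0.83 without replicate 2. The FE8 value stayed at -0.94 in both cases. Without FE8 treated replicate 1 or 2 the average did not pass (-1.0 and -1.09). X02610_g_at, from the same sequence record, moved far less, with 14030 and 13523 in treated FE8 against 15129 in untreated FE8, and 13110 and 12255 in treated 208F against 14196 in untreated 208F (averaged difference -0.15 ± 0.20, adjusted p = 0.683).

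Hk2 D26393exon_s_at differed by -0.87 ± 0.34 in FE8 (adjusted p = 0.165) and -1.25 ± 0.34 in 208F (adjusted p = 0.0656). The average over the lines was -1.06 ± 0.24 (limma adjusted p = 0.0131), a call lost without FE8 treated replicate 1 (-0.99, adjusted p = 0.0896) or replicate 2 (-1.13, adjusted p = 0.0582). Hk2 M68971_at stood at -0.11 ± 0.23, and Hk1 at 0.23 ± 0.21 (rc_AI012593_at) and -0.32 ± 0.32 (U27319exon_at). Pkm had 11187 and 11312 in treated FE8 against 15030 in untreated FE8, and 13169 and 9012 in treated 208F against 17103 in untreated 208F. Its averaged difference of -0.53 ± 0.23 did not pass (adjusted p = 0.146). That difference was -0.67 without 208F treated replicate 1 and -0.40 without replicate 2. Aldoa was at -0.90 ± 0.32 in 208F (adjusted p = 0.148) and 0.00 ± 0.32 in FE8. Without 208F treated replicate 1 the Aldoa value in 208F was -1.25 and the difference between the drug effects 1.26.

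Ldhb was on the opposite side. U07181_at had 227 and 252 in treated FE8 against 134 in untreated FE8, and 289 and 387 in treated 208F against 194 in untreated 208F, and U07181_g_at had the same order. Averaged differences were 0.62 ± 0.26 (U07181_at) and 0.75 ± 0.31 (U07181_g_at), with adjusted p = 0.146 and 0.143. Without 208F treated replicate 1 U07181_g_at was at 0.98.

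**Figure D4:**
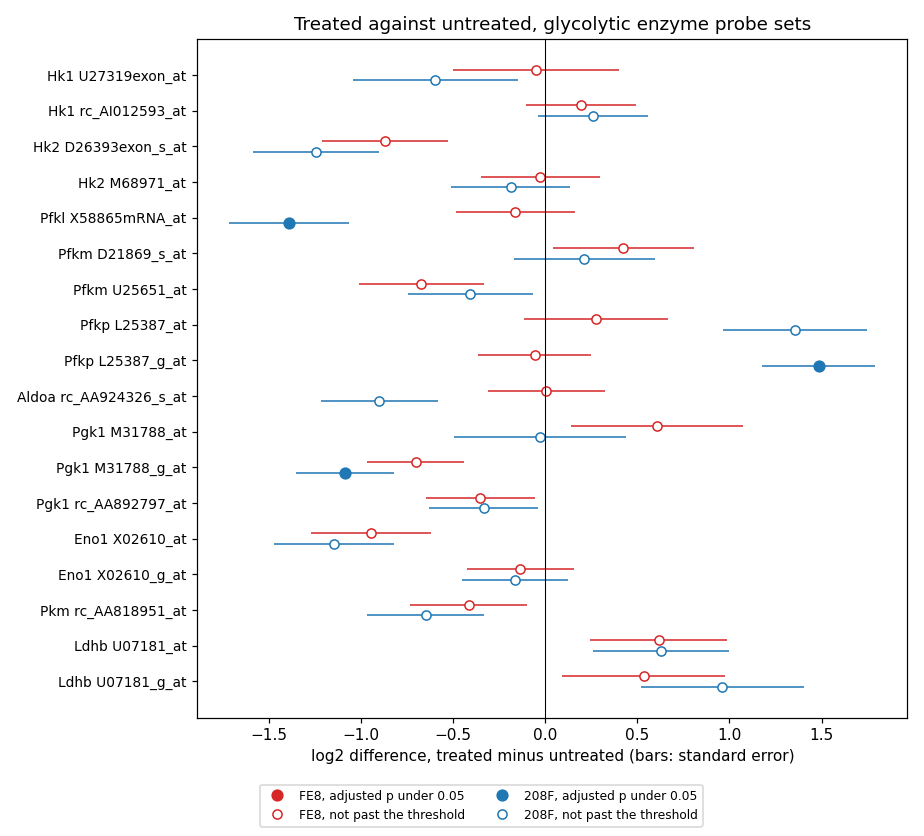
Log2 difference, treated minus untreated, with standard errors, for the 18 tested probe sets in FE8 (upper point of each pair) and 208F (lower point); filled points have an adjusted p under 0.05. Only 208F has filled points: Pfkp at 1.49, Pgk1 at -1.09 and Pfkl at -1.39.

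All 4 treated arrays were below both untreated arrays for 5 of 18 probe sets (2 of Eno1, and 1 each of Pfkm, Pgk1 and Pkm), where 12.5% of all probe sets had this order. They were above for the 2 Ldhb probe sets, where 18.6% had that order. No drug effect differed between the lines by limma's test (0 of 18, with 2 of 18 at an unadjusted p under 0.05), where 0.0623% of all probe sets did (0.0208% higher and 0.0415% lower in FE8) and 7.56% reached an unadjusted p under 0.05. Several measures moved with the drug. GAPDH, the glycolytic dehydrogenase measured by control probe sets, had a 3' signal of 18524 and 18753 in treated FE8 against 24911 in untreated FE8, and 17387 and 14484 in treated 208F against 24455 in untreated 208F. Its 5' signal was 20852 and 20113 in treated FE8 against 17221 in untreated FE8, and 19689 and 14634 in treated 208F against 22407 in untreated 208F. Of 17 proliferation probe sets 13 were lower averaged over the lines and none was higher, against 6.50% and 9.07% of all probe sets. Over 3 of 6 epithelial markers, the summed signal was 4495 and 4522 in treated FE8 against 162 in untreated FE8, and 3553 and 3118 in treated 208F against 188 in untreated 208F. Over 4 of 7 skeletal muscle markers it was 1547 and 1495 in treated FE8 against 608 in untreated FE8, and 3397 and 3463 in treated 208F against 946 in untreated 208F. Over 3 of 6 neuronal and glial markers it ran from 438 to 755 over the 6 arrays, and Cd14, the only leukocyte marker measured, from 311 to 802. Their part in the glycolytic differences was not tested.

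The steps around glycolysis were described with lists of other genes. Glucose and lactate transport had 9 probe sets of 7 genes. Slc2a1, the main glucose transporter of proliferating cells, was higher in FE8 averaged over the conditions by both probe sets, by 1.04 ± 0.23 (S68135_s_at, limma adjusted p = 0.0149) and 1.11 ± 0.23 (M13979_at, limma adjusted p = 0.00815). Without the drug neither passed (limma adjusted p = 0.202 for S68135_s_at and 0.0749 for M13979_at). Under the drug S68135_s_at passed (limma adjusted p = 0.0368) and M13979_at did not (limma adjusted p = 0.0608). S68135_s_at had 3079 and 3834 in treated FE8, 4129 in untreated FE8, 1231 and 2101 in treated 208F and 2024 in untreated 208F, with no overlap of the lines. Slc16a1, a transporter of lactate and pyruvate, was higher in untreated FE8 by 1.82 ± 0.34 (rc_AI145680_s_at, limma adjusted p = 0.00842), with 3510 in untreated FE8 against 946 in untreated 208F. By that probe set it rose in treated 208F to 2723 and 3821, by 1.70 ± 0.29 (limma adjusted p = 0.00653). Both differences use the single untreated 208F array. Under the drug the line difference was 0.52 ± 0.24, and the drug effect in FE8 was 0.40 ± 0.29, neither called. A difference between the drug effects was not called either (-1.31 ± 0.41, limma adjusted p = 0.307). By Slc16a1 D63834_at the untreated line difference was 1.91 ± 0.56 and not called, and the rise in 208F was 2.01 ± 0.49 and called. Averaged over the lines 5 of 9 transport probe sets rose with the drug and 1, Slc2a1 M13979_at, fell (-0.80 ± 0.23, adjusted p = 0.0375), where 9.07% of all probe sets were called higher and 6.50% lower. Those that rose included both of Slc16a1 and the neuronal-type glucose transporter Slc2a3 (1.19 ± 0.26). The others were the fructose transporter Slc2a5 (1.38 ± 0.31) and the lactate exporter Slc16a3 (1.07 ± 0.28). In untreated FE8 and 208F Slc2a5 had 35 and 38, below the value added to each signal, and Slc16a3 had 69 and 79, near it. On the treated arrays Slc2a5 had 106 to 241 and Slc16a3 186 to 307. The untreated arrays had the larger shares of signals below the added value. The part of these low signals in the rises of Slc2a5 and Slc16a3 was not tested.

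**Figure D5:**
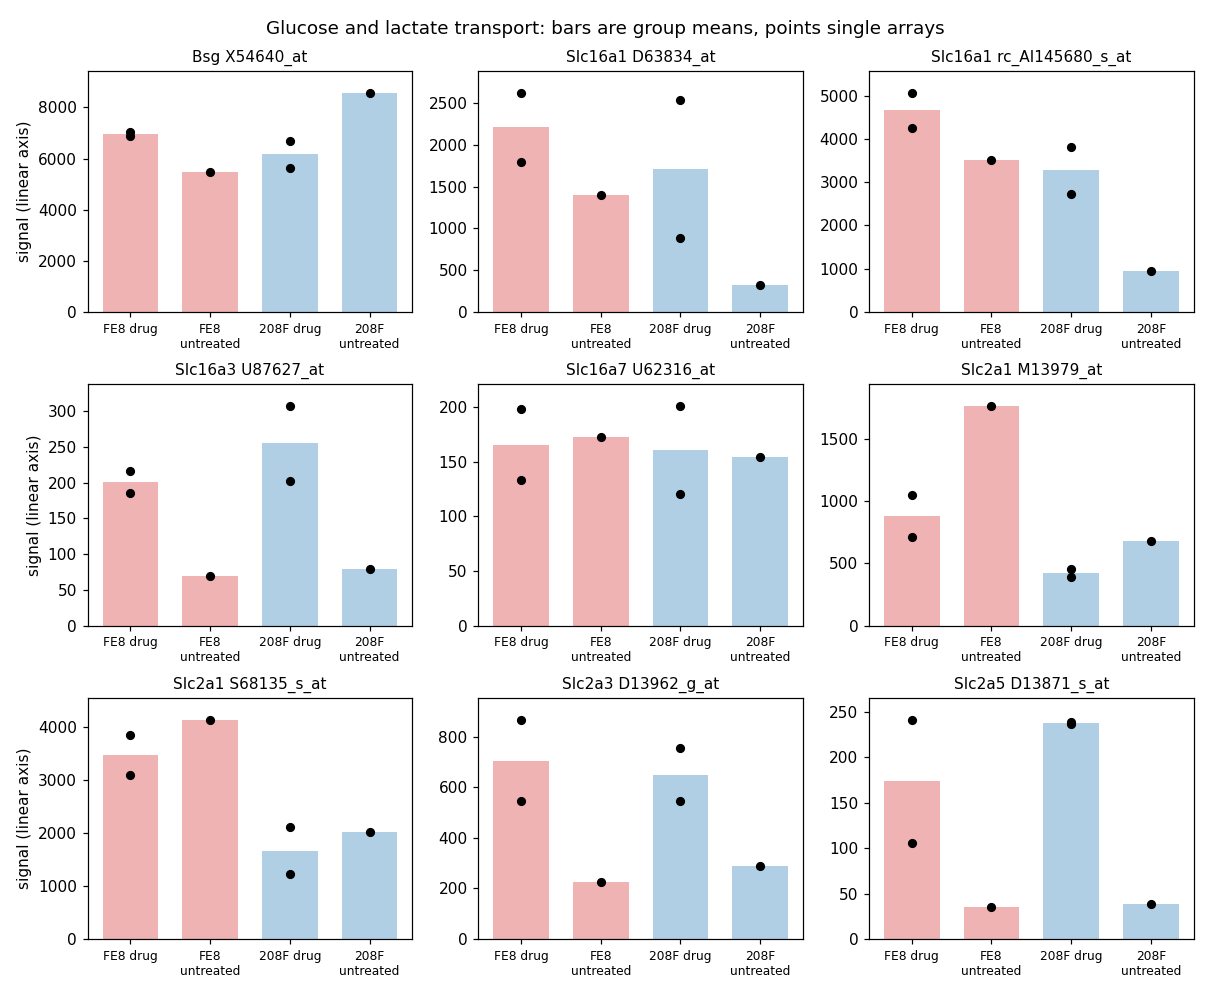
Signal (linear axes from 0) of the 9 probe sets for glucose and lactate transport in the 4 groups; bars are group means, points single arrays (2 treated and 1 untreated per line). Slc2a1 is higher on the FE8 arrays than on the 208F arrays, and Slc16a1 is lowest in untreated 208F.

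Among the remaining glycolytic genes, 5 of 21 were measured by 7 probe sets. None passed in the line comparisons by limma. With the drug averaged over the lines 1 fell, S63233_at of the mutase Pgam1, by 1.01 ± 0.22 on the log2 scale (limma adjusted p = 0.0113). Of all probe sets 6.50% were lower. S63233_at had 9042 and 9206 in treated FE8 against 18681 in untreated FE8, and 8319 and 5582 in treated 208F against 13523 in untreated 208F. The other Pgam1 probe sets did not pass, at -0.26 ± 0.20 (S63233_g_at, limma adjusted p = 0.451) and -0.60 ± 0.20 (rc_AI169417_s_at, limma adjusted p = 0.064). Of 3 pentose phosphate probe sets, transketolase Tkt (U09256_at) was higher in untreated FE8 by 1.62 ± 0.32 (adjusted p = 0.0104) and fell in treated FE8 (-1.26 ± 0.27, adjusted p = 0.0172). Its signal by U09256_at was 3440 in untreated FE8 and 936 to 1454 on the other 5 arrays. The other Tkt probe set, rc_AI059508_s_at, was called in neither comparison (0.31 ± 0.39 and -0.42 ± 0.34). Of 24 probe sets for pyruvate dehydrogenase and the citrate cycle, 1 was higher and none lower in FE8 averaged over the conditions. Of all probe sets 5.71% were called higher and 5.35% lower, so the count does not set the list apart. The 1 was of the phosphatase Pdp1, AF062740_g_at (0.83 ± 0.23, limma adjusted p = 0.0414). The other Pdp1 probe set, AF062740_at, did not pass (0.73 ± 0.28, limma adjusted p = 0.144). With the drug averaged over the lines, Pdha1, a subunit of pyruvate dehydrogenase, fell by 1 of 2 probe sets (-1.01 ± 0.19, adjusted p = 0.00466) and Mdh2, mitochondrial malate dehydrogenase, rose by both (0.70 ± 0.19 and 0.90 ± 0.21). None of 8 gluconeogenesis and glycogen probe sets passed in any comparison. Of 23 probe sets for regulators and targets of HIF and MYC, none was higher in FE8 and 3 were lower averaged over the conditions, against 5.71% and 5.35% of all probe sets. The 3 were adrenomedullin Adm (-1.65 ± 0.24, adjusted p = 0.000902) and 2 of heme oxygenase Hmox1. Hif1a itself differed by 0.06 ± 0.22.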

How the data were processed

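Intensity values per probe set of an Affymetrix rat expression array were used as deposited, on a linear scale and rounded to whole numbers. MAS5 is the tool named in the submitters' processing notes, with no version. Column means between 1258.0 and 1389.5 were taken to mean that arrays were already scaled. How the 4847 probe sets in the table were selected is not given in the sources used here. The 29 control probe sets among them stayed out of the tests. Names came from the platform annotation, updated by gene identifier through RefSeq (GRCr8): 3956 tested probe sets had 1 gene, 207 several and 655 none, and 3942 matched. All tested probe sets of the glycolytic enzymes are reported, but not all those of the other genes.

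Groups came from sample titles. Signals were transformed as log2(signal + 64) and fitted with limma 3.58.1 in R 4.3.3 (4 group means, eBayes with an intensity trend, 2 residual and 9.02 prior degrees of freedom, 2-sided tests). The 7 comparisons were the line difference untreated, treated and averaged, the drug effect in FE8, in 208F and averaged, and the difference of drug effects. The fit was tested on simulated data. Precision is limited by the number of arrays. Members and lists were chosen with earlier results of these data known. The text names every member probe set, up to 4 genes past the threshold per other list and comparison, and the 5 genes closest to the member with the smallest F-test p. Beyond this rule Col1a1, Hif1a, the fall of Slc2a1 and further probe sets of listed genes were named after their values were seen. Alternatives were other pseudocounts (16 and 256), quantile normalization, median scaling, a minimum mean signal of 200, no trend, each treated replicate left out and a replicate block.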

Additional observations from a re-analysis of the deposited data

How the results depend on the processing

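Over the 7 comparisons glycolytic probe sets had 18 calls, which all kept their sign under the 11 alternatives, and 3 of them passed the threshold in all of these: Pfkp L25387_g_at untreated and both Pfkp probe sets averaged over the conditions. In the other 15 a call was lost at least once, mostly where an FE8 treated replicate was left out and the error came from the 208F duplicates. For the drug effect in 208F, 3 glycolytic probe sets passed, but 0 with quantile normalization and 0 without the intensity trend, and for the effect averaged over the lines 5 passed, but 3 with either. Counts over all probe sets moved by more than 1.5 times under quantile normalization for the drug effect in FE8 (257, against 393) and in 208F (164, against 250). The 3 probe sets whose drug effects differed became 10 and 6 with the smaller and the larger pseudocount, 27 with median scaling, and 0 with quantile normalization, a minimum signal of 200, no trend or the replicate block. The causes were not tested.

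Leaving out 1 treated replicate in turn gave the following ranges. Their upper ends came from fits without a 208F treated replicate, with the error from the FE8 duplicates alone. Untreated line difference: 109 to 541 probe sets and 1 to 2 glycolytic. Treated line difference: 96 to 530 and 0 to 5. Averaged line difference: 229 to 846 and 2 to 5. Drug effect in FE8: 76 to 783 and 0 to 2. Drug effect in 208F: 75 to 663 and 0 to 8. Averaged drug effect: 264 to 1161 and 0 to 10. Difference of drug effects: 0 to 206 and 0 to 2.

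Treated replicates of the lines share numbers, and the deviations of same-numbered arrays correlated with r = 0.319 over 4818 probe sets, but with only 2 pairs this is a hint and no pairing. With the replicate block the treated line difference had 325 calls (341 without it) and 3 glycolytic ones. Under it Pgk1 M31788_g_at no longer passed in the treated or averaged line difference or in the drug effect in 208F, nor Pfkl in the last, while Pfkp L25387_at newly passed for the drug effect in 208F and averaged over the lines. It changed no other call of a glycolytic probe set.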

Other observations

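Some glycolytic differences rest on 1 array. Pfkl and Aldoa were highest in untreated 208F (1192 and 5479), and Hk2 D26393exon_s_at in untreated FE8 (1025), each of them a group with no replicate. Pfkp was lowest in untreated 208F (215 by L25387_g_at and 81 by L25387_at). That array enters its untreated line difference and its rise in 208F. The 3' and 5' hexokinase control probe sets gave ratios of 5' to 3' signal of 0.272 and 0.279 in treated FE8, 0.182 in untreated FE8, 0.312 and 0.215 in treated 208F and 0.361 in untreated 208F. Among pairs of probe sets for the same gene, correlation over the 6 arrays was 0.982 for Pfkp, 0.946 for Ldhb and 0.809 for Eno1, but 0.335 for Hk2, -0.287 for Pfkm and -0.298 for Hk1, as a description with arrays of 2 lines and 3 run days.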
